A study of Drosophila melanogaster with 8 samples.

Results

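The catecholamine tanning enzymes described here are 8 genes, ple, Pu, Ddc, amd, b, e, t and Dat. They were chosen by name for the dopamine, β-alanine and N-acetyl steps of cuticle tanning, and all 8 were present among the 13918 genes of the deposited expression table. The row named Dat is the arylalkylamine N-acetyltransferase gene, which RefSeq now lists as speck, and not the dopamine transporter, which has its own row, DAT. RNA was sequenced from whole pupae of the wild-type Drosophila melanogaster strain Canton-S, with 4 libraries from pupae held at 3 g, in hypergravity, while they developed, and 4 libraries from 1 g control pupae. Both groups carried the same wild-type genotype, came from flies raised at 25 °C and were collected at the early pupal stage P6. Whether the pools were alike in developmental age was not tested. A library was made from the polyadenylated RNA of 4 whole pupae together, their sex not stated, so that every value sums over all tissues and over the animals of a pool. Fewer cells of a type and less RNA per cell cannot be told apart in such pools.

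Insect cuticle is hardened and coloured by catecholamines that the epidermis makes from tyrosine. Tyrosine hydroxylase (ple) makes DOPA with a tetrahydrobiopterin cofactor whose synthesis begins with the product of Pu, and DOPA decarboxylase (Ddc) turns DOPA into dopamine. Dopamine is then joined to β-alanine by the product of e or acetylated by that of Dat, and the oxidised conjugates crosslink cuticle proteins. The same first steps make dopamine as a transmitter in neurons.

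Levels are given in transcripts per 1000000 (TPM), which are corrected for gene length, so that genes can be compared within a library. Depth cannot be read from TPM and is unknown. Changes are differences in log2(TPM + 0.5), 3 g minus control, a scale on which changes of low genes come out smaller than they are. Of 12044 genes tested with limma, 516 (4.28%) had a Benjamini-Hochberg adjusted p under 0.05, 2.23% higher at 3 g and 2.06% lower. Libraries were unequal. At 3 g, replicate 2 lay at least 4-fold below its group's other pools for 1185 genes, and the same count was 29 to 46 for the other pools at 3 g. Control replicate 4 lay at least 4-fold above the other controls for 106 genes, against 1 to 22 for each other control. Those 106 genes, 0.88% of the genes tested, included 3 of the 8 enzyme genes, ple, Pu and Ddc. Whether the pools were raised in separate cultures is not stated, and each p-value therefore covers the spread among these 8 pools alone.

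None of the 8 enzyme genes passed the threshold, with 0 higher and 0 lower (limma). At an unadjusted p under 0.05 there were 3 of 8 (37.5%), ple, amd and Dat, each with its mean higher at 3 g (limma). Of all 12044 genes tested 16.3% reached it in either direction, and 1033 reached it with the change above 0. The count of enzyme genes was 1 without 3 g replicate 4, 2 without 3 g replicate 2 or any one control, and 3 without 3 g replicate 1 or 3. The smallest adjusted p of the 8 was 0.0846, that of Dat. The median log2 change of the 8 was 0.11, with 5 above 0 and 3 below, and that of all genes tested was -0.02. The size of the median of the 8 depended on single libraries, and its sign turned only without control replicate 1. Leaving out control replicate 1, 2, 3 or 4 gave -0.01, 0.03, 0.10 and 0.34. Leaving out 3 g replicate 1, 2, 3 or 4 gave 0.01, 0.11, 0.48 and 0.04. The groups were separate for 1 of the 8 genes, Dat, which is 12.5% of the members and the same share as among all genes tested (12.5%). What set the enzyme genes apart from each other was which pools held the high values. For ple and amd these were replicates 2 and 4 at 3 g, and for Pu and Ddc it was control replicate 4.

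**Figure D1:**
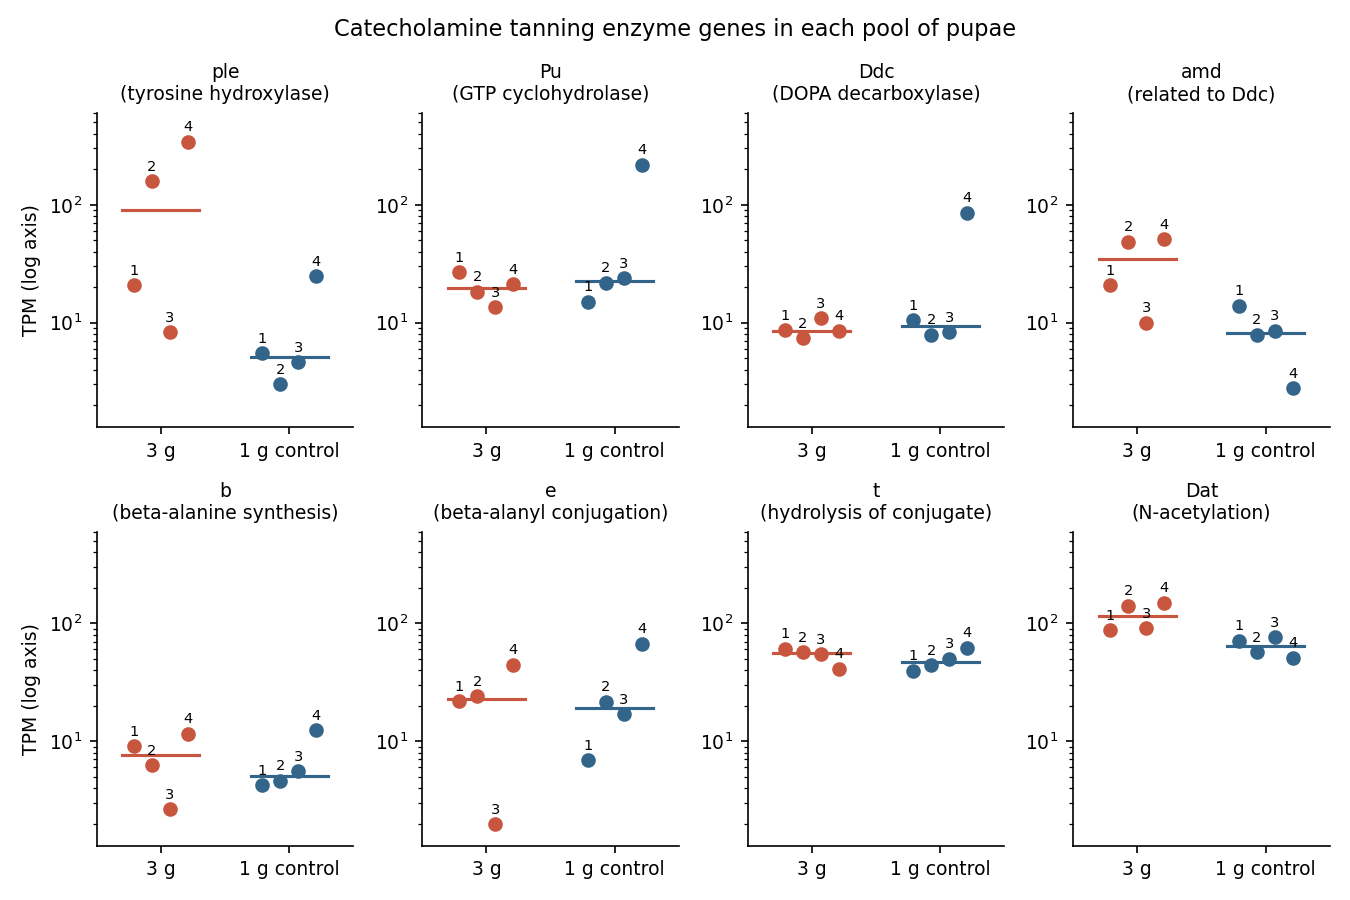
TPM of each enzyme gene on a log axis, with 1 point per pool, the replicate number above it and a line at the group median (n = 4 pools per group). The ple pools at 3 g run from 8.27 to 342 TPM, while Pu and Ddc each have a single high pool, control replicate 4.

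The gene ple encodes tyrosine hydroxylase, the rate-limiting enzyme of dopamine synthesis. It stood at 20.8, 159, 8.27 and 342 TPM in replicates 1 to 4 at 3 g, and at 5.50, 3.02, 4.64 and 24.7 TPM in control replicates 1 to 4. Each pool at 3 g exceeded control replicates 1 to 3, but control replicate 4 lay above replicates 1 and 3 at 3 g, so the groups overlapped. The highest pool of all held 113 times the lowest. For ple the log2 change was 2.97 ± 1.20 (SE, n = 4 pools per group), with a 95% interval of 0.20 to 5.73 and an adjusted p of 0.263 (limma). Only 1.03% of the genes tested had a within-group SD at least as large. Leaving out any one library kept the log2 change between 2.10 and 3.86.

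Pu encodes GTP cyclohydrolase, which starts the synthesis of tetrahydrobiopterin and of the pteridine eye pigments. Its levels were 26.7, 18.4, 13.5 and 21.2 TPM in replicates 1 to 4 at 3 g and 15.1, 21.8, 23.8 and 218.7 TPM in control replicates 1 to 4. Control replicate 4 was 9.21-fold above the next control, and the pools at 3 g overlapped the other controls. Pu had a log2 change of -0.89 ± 0.78 (SE, adjusted p = 0.683, limma), with a 95% interval of -2.68 to 0.90. Without control replicate 4 it was -0.03. Although ple and Pu serve the same reaction, their high values lay in different pools, since replicates 2 and 4 at 3 g, highest for ple, lay within the range of control replicates 1 to 3 for Pu.

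DOPA decarboxylase, the product of Ddc, makes dopamine and also serotonin. Ddc showed the pattern of Pu, with 8.64, 7.41, 10.9 and 8.52 TPM in replicates 1 to 4 at 3 g and 10.5, 7.89, 8.28 and 85.9 TPM in control replicates 1 to 4. Control replicate 4 was 8.17-fold above the next control. The 4 pools at 3 g differed by 1.47-fold between highest and lowest. Its log2 change was -0.81 ± 0.71 (SE, adjusted p = 0.686, limma), with a 95% interval of -2.45 to 0.83, and it was -0.01 without control replicate 4. Centred on their own means, Ddc and Pu differed by a root mean square of 0.44 log2 units over the 8 libraries, the smallest difference among the 28 pairs of enzyme genes. In the Ensembl annotation of assembly BDGP6, 88 of the 2797 exon bases of Ddc are shared with CG10561 on the other strand. CG10561 stood at 11.6 to 41.8 TPM at 3 g and 28.9 to 55.9 TPM in controls. Its control replicate 4, at 55.9 TPM, was barely above control replicate 2, at 53.7 TPM.

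The gene amd encodes a relative of Ddc that acts on DOPA and yields an aldehyde used in cuticle. It read 20.7, 48.5, 10.0 and 51.2 TPM in replicates 1 to 4 at 3 g, and 13.9, 7.91, 8.55 and 2.77 TPM in control replicates 1 to 4. Among the pools at 3 g, 3 lay above every control and replicate 3 lay below control replicate 1. Control replicate 4, highest of all pools for Ddc, was lowest of all pools for amd. This gene had a log2 change of 1.82 ± 0.62 (SE, adjusted p = 0.177, limma), with a 95% interval of 0.40 to 3.25. It was 1.41 to 2.28 with any one library left out and 1.13 without 3 g replicate 2 and control replicate 4 together.

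β-Alanine comes from aspartate through the product of b, an aspartate decarboxylase. This was the lowest of the enzyme genes by its mean over all libraries, at 9.06, 6.28, 2.65 and 11.6 TPM in replicates 1 to 4 at 3 g and 4.22, 4.62, 5.54 and 12.5 TPM in control replicates 1 to 4. Replicate 4 of either group was the highest and 3 g replicate 3 the lowest. For b the log2 change was 0.10 ± 0.48 (SE, adjusted p = 0.943, limma), with a 95% interval of -1.01 to 1.20. Its sign turned without 3 g replicate 1 or 4 or control replicate 1 or 2, where it was -0.05, -0.16, -0.06 and -0.02.

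The gene e (ebony) encodes the enzyme that joins β-alanine to dopamine, as well as to histamine in the visual system. It read 21.8, 24.1, 1.98 and 44.6 TPM in replicates 1 to 4 at 3 g, and 6.92, 21.6, 16.9 and 67.0 TPM in control replicates 1 to 4. The groups overlapped throughout, with 3 g replicate 3 lowest, as for b, and control replicate 4 highest. That lowest pool was at least 4-fold below the other pools of its group, as were 0.357% of the genes tested. For e the log2 change was -0.41 ± 0.98 (SE, adjusted p = 0.871, limma), with a 95% interval of -2.67 to 1.85. It was 0.48 without 3 g replicate 3 and 0.15 without control replicate 4.

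The gene t (tan) encodes the hydrolase that undoes the reaction of ebony and releases dopamine. It was the steadiest of the 8, at 61.0, 56.7, 54.9 and 41.1 TPM in replicates 1 to 4 at 3 g and 39.7, 44.0, 50.0 and 62.0 TPM in control replicates 1 to 4. Both groups spanned nearly the same levels. The log2 change was 0.13 ± 0.18 (SE, adjusted p = 0.782, limma), with a 95% interval of -0.29 to 0.55 that spans 0.

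The N-acetyltransferase gene Dat, whose product makes N-acetyldopamine for pale cuticle and also acetylates other amines, had the narrowest interval of the 3 genes at an unadjusted p under 0.05. It stood at 87.5, 141, 91.2 and 149 TPM in replicates 1 to 4 at 3 g, and at 71.3, 56.7, 75.9 and 50.9 TPM in control replicates 1 to 4. Every pool at 3 g lay above every control pool, and replicates 2 and 4 at 3 g were again the highest. The means were 117 ± 32.3 TPM at 3 g and 63.7 ± 11.8 TPM in controls (SD, n = 4 each). The log2 change of 0.85 ± 0.23 (SE) had a 95% interval of 0.33 to 1.38 and an adjusted p of 0.0846, which misses the threshold (limma). An exact two-sided permutation test of Dat alone gave p = 0.0286, unadjusted, the smallest that 4 pools against 4 allow. The same exact permutation test gave p = 0.0857 for ple and 0.0571 for amd. With any one library left out the log2 change of Dat stayed between 0.72 and 0.98, and with sample weights it was 0.47. Over all alternatives its adjusted p ran from 0.0713 to 0.334 (limma). On the other strand 95 of the 1887 exon bases of Dat are shared with CG42568 and with DnaJ-60, which stood at 5.73 to 10.4 and 8.04 to 21.6 TPM at 3 g and at 7.77 to 11.2 and 11.3 to 30.7 TPM in controls.

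**Figure D2:**
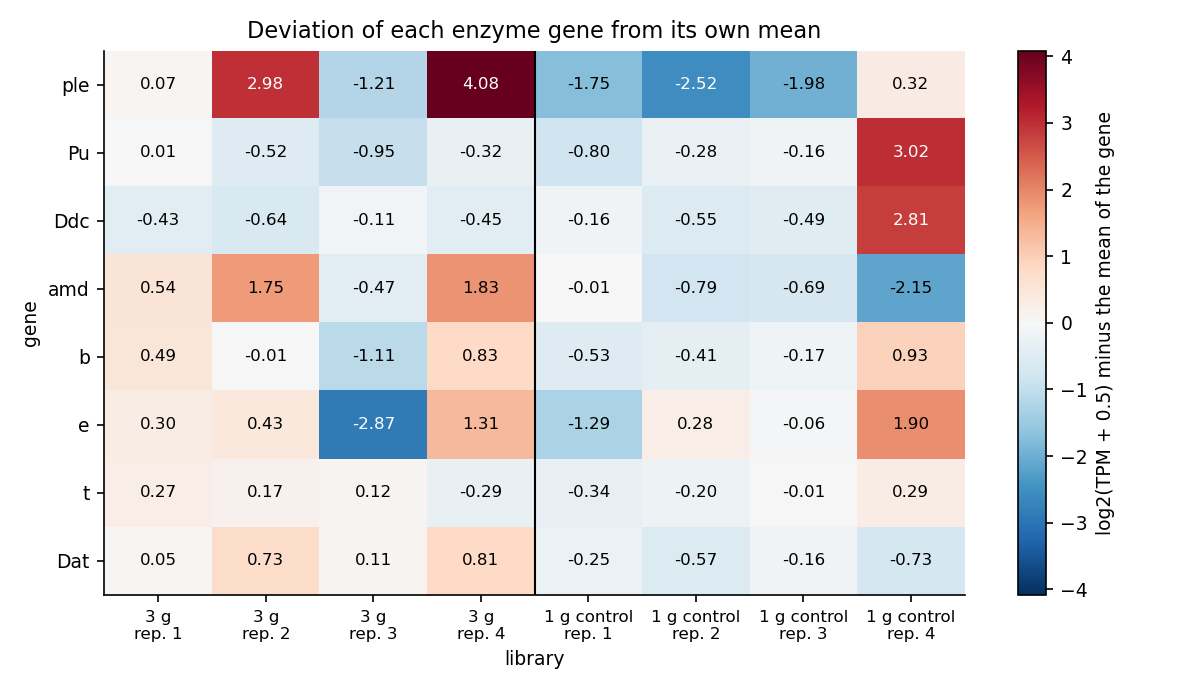
Deviation of log2(TPM + 0.5) from the mean of each gene over the 8 libraries (colour and printed value), with genes in rows and libraries in columns. Replicates 2 and 4 at 3 g are high for ple (2.98 and 4.08), amd and Dat, and control replicate 4 is high for Pu (3.02), Ddc (2.81) and e.

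The order of the genes by level also changed between pools. By group medians at 3 g the order was Dat (116 TPM), ple (89.8), t (55.8), amd (34.6), e (22.9), Pu (19.8), Ddc (8.58) and b (7.67), and the ranges of neighbours overlapped for all but Pu and Ddc. In controls it was Dat (64.0 TPM), t (47.0), Pu (22.8), e (19.2), Ddc (9.40), amd (8.23), b (5.08) and ple (5.07), with overlapping ranges for every pair of neighbours. The summed level of the 8 genes was 256, 461, 193 and 669.5 TPM in replicates 1 to 4 at 3 g and 167, 168, 193.5 and 524 TPM in control replicates 1 to 4. The tyrosine hydroxylase gene ple made up 34.4% and 51.1% of that sum in 3 g replicates 2 and 4, and 4.28% and 8.11% in 3 g replicates 3 and 1. In controls ple made up 1.80% to 4.72%. Pu made up 41.7% of the sum in control replicate 4 and 9.01% to 13.0% in the other controls, where Dat, at 33.8% to 42.7%, was the largest part.

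A ratio of genes in the same library is nearly free of how libraries were scaled (pseudocount apart). Of 4 such ratios, the ratio of Ddc to ple, the successive enzymes from tyrosine to dopamine, kept the groups apart. In replicates 1 to 4 at 3 g there were 0.416, 0.0467, 1.32 and 0.0249 Ddc transcripts per ple transcript, against 1.91, 2.61, 1.78 and 3.47 in control replicates 1 to 4. Every pool at 3 g lay below every control, although 3 g replicate 3 came close. In control replicate 4 ple, at 24.7 TPM, lay within its range at 3 g. The ratio of that pool therefore rested on its high Ddc value of 85.9 TPM. How often ratios of other gene pairs keep the groups apart was not tested. On the log2 scale the ratio averaged -2.60 ± 2.63 at 3 g and 1.17 ± 0.45 in controls (SD, n = 4 each), a difference of -3.77 (exact two-sided permutation test, p = 0.0286, the smallest possible, and 0.114 adjusted over the 4 ratios). That difference did not pass after adjustment, which a single ratio could not do alone even at the smallest possible p. The difference stayed between -4.77 and -2.89 with any one library left out.

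The other 3 ratios overlapped between groups. The ratio of amd to Ddc was 2.40, 6.54, 0.916 and 6.00 in replicates 1 to 4 at 3 g, and 1.33, 1.00, 1.03 and 0.0323 in control replicates 1 to 4. Its difference was 2.63 on the log2 scale (exact permutation p = 0.114, and 0.229 adjusted), and 1.41 without control replicate 4. The ratio of Dat to e, the acetyl against the β-alanyl route, differed by 1.26 (exact permutation p = 0.371, and 0.495 adjusted), with 46.1 Dat transcripts per e transcript in 3 g replicate 3 and 0.759 in control replicate 4 at the extremes. Its difference was 0.48 without 3 g replicate 3, 0.60 without control replicate 4 and up to 1.82 with another library left out. The ratio of e to t, joining against release of β-alanine, differed by -0.54 (exact permutation p = 0.686, and 0.686 adjusted). That ratio was lowest in 3 g replicate 3, at 0.0361, and without that pool the difference was 0.36.

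**Figure D3:**
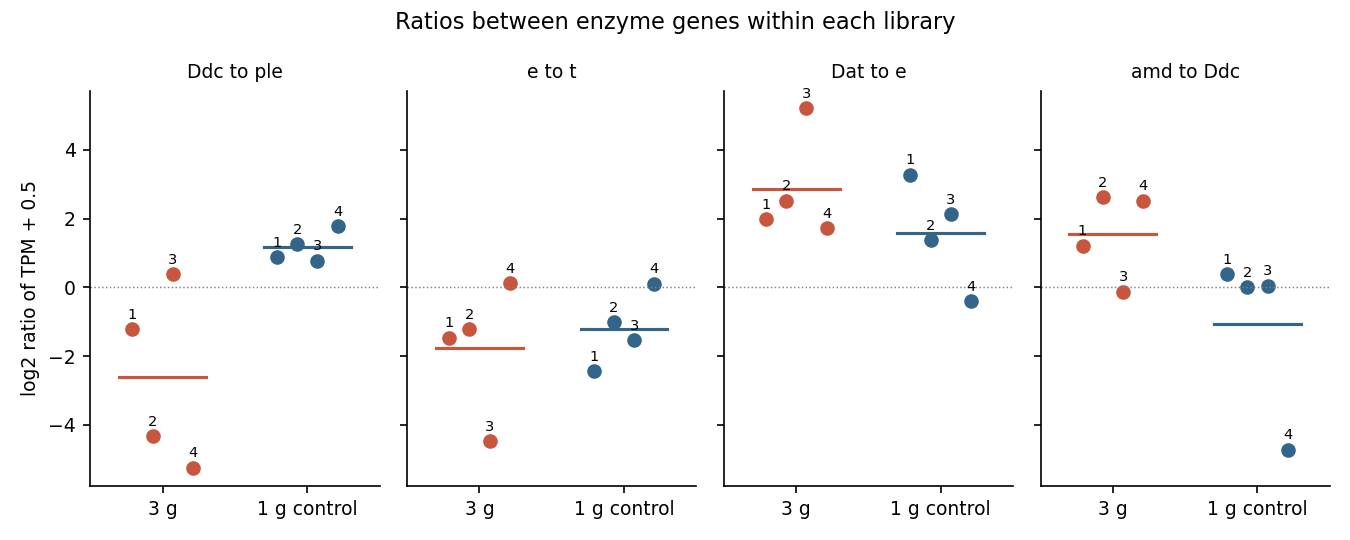
Log2 ratios of TPM + 0.5 between enzyme genes of the same library, with 1 point per pool, its replicate number and a line at the group mean (n = 4 pools per group). The ratio of Ddc to ple lies between -5.25 and 0.38 at 3 g and between 0.77 and 1.78 in controls.

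Genes most like each enzyme gene were sought among 10272 other tested genes that averaged 5 TPM or more, by the root mean square difference of centred log2 values over the 8 libraries. Such closeness describes these 8 pools, which the genes share. For Dat the nearest were Sply, a sphingosine phosphate lyase gene (0.10), Atg18b (0.11) and the glutamine synthetase gene Gs1 (0.11). Gs1 averaged 554 ± 122 TPM at 3 g against 282 ± 53.0 TPM in controls (SD, n = 4 each). For Ddc they were CG6908 (0.27), the cytochrome c gene Cyt-c-p (0.41) and SclA (0.42), and Cyt-c-p read 646 TPM in control replicate 4 against 107 to 154 TPM in the other controls. For Pu they were SclA (0.27), CG14022 (0.36) and Gbeta76C (0.43), the G protein subunit of photoreceptors, which read 56.8 TPM in control replicate 4 against 6.28 to 7.20 TPM in the other controls. For amd they were Reg-5 (0.29), GILT2 (0.39) and CG14960 (0.43). For b they were CG9815 (0.27), CG34396 (0.28) and the amphiphysin gene Amph (0.33). No gene came as close to ple or e, but this difference is not scaled to how much a gene varies. The SD of log2 values over the 8 libraries was 2.40 for ple, 1.49 for e and 0.555 for Dat. The nearest to ple were CG31437 (0.86), CG6788 (0.91) and CG34206 (0.97), of which CG34206 reached 201 and 319 TPM in 3 g replicates 2 and 4 and stayed at 2.70 to 9.33 TPM in the other 6 pools. The nearest to e were CG42326 (0.77), CG12769 (0.79) and CG9815 (0.81).

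**Figure D4:**
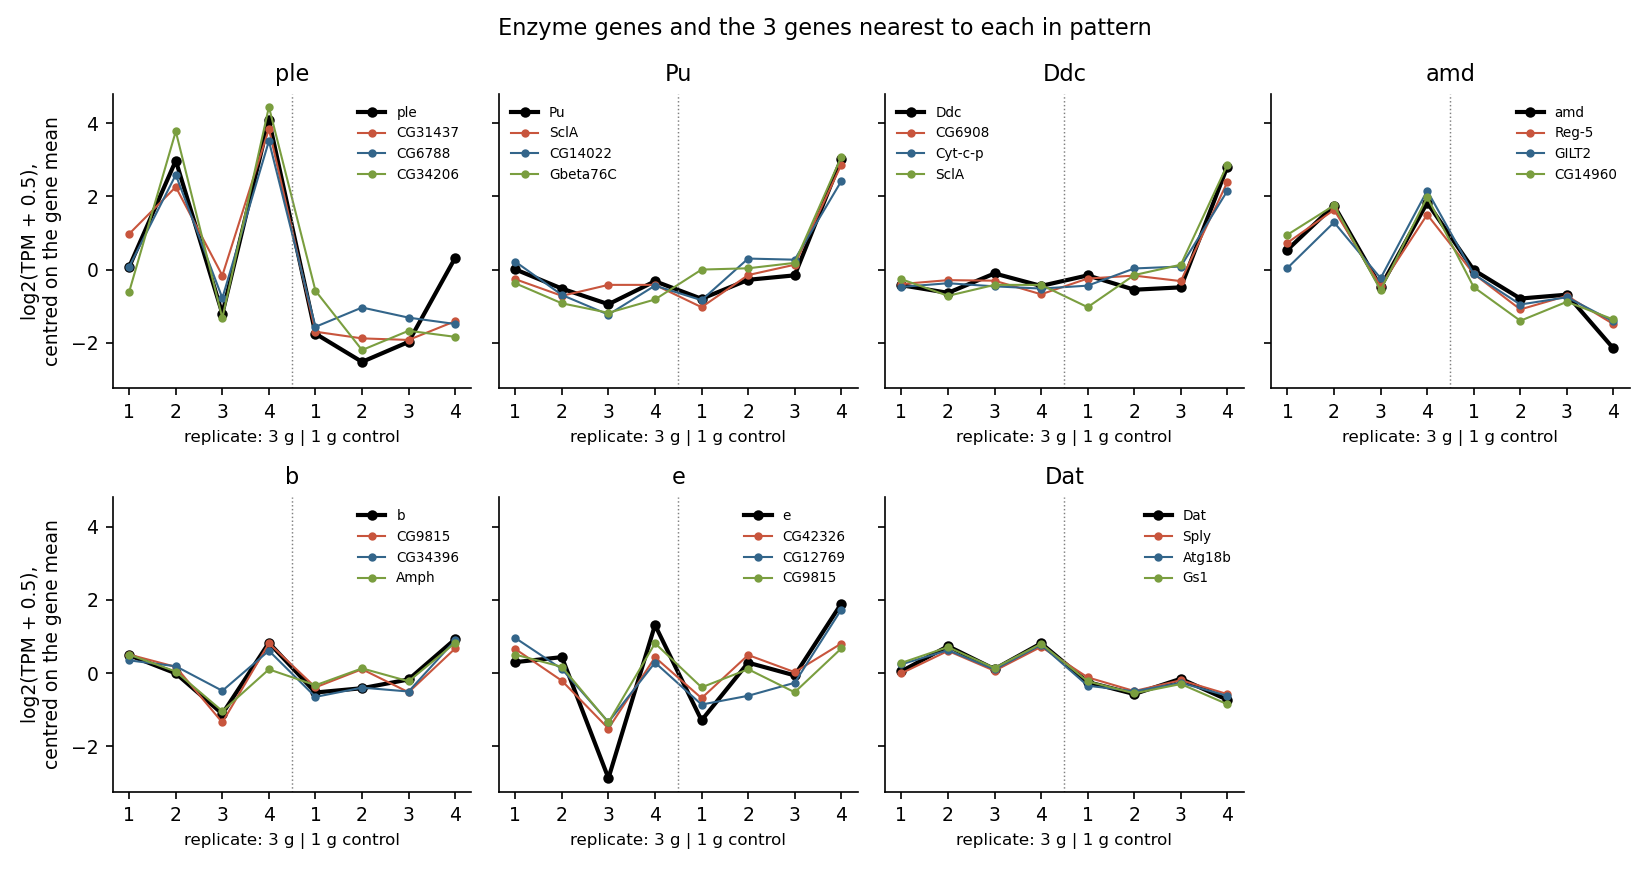
Centred log2(TPM + 0.5) of 7 enzyme genes (black) and of the 3 genes nearest to each (colours) over the replicates at 3 g and in controls. The genes nearest to Dat differ from it by 0.10 to 0.11 log2 units, and for ple and e even the nearest gene differs by 0.86 and 0.77. These differences are not scaled to the spread of each gene, which is larger for ple and e than for Dat.

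Other genes around the same reactions were counted in 9 lists with 42 genes in the table, of which 33 were tested. In the limma fit 1 was higher, 1 lower and 31 did not pass, beside 2.23% higher and 2.06% lower among all genes tested, so these shares are near the background. Their median log2 change was -0.06, and it ranged from -0.19 without 3 g replicate 1 or control replicate 4 to 0.04 without 3 g replicate 4. In the list of regulators of tanning genes the gene that rose was br (broad), a transcription factor of the ecdysone response. It averaged 85.3 ± 42.1 TPM at 3 g and 11.1 ± 3.70 TPM in controls (SD, n = 4 each, log2 change 2.80, adjusted p = 0.0104, limma), and its highest pools were 3 g replicates 2 and 4, at 128 and 115 TPM. With the replicate number as a block br did not pass (adjusted p = 0.108, at the top of a range of 0.00279 to 0.108 over its alternatives, limma). None of the other 7 regulators passed.

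Laccases and phenoloxidases oxidise catechols in cuticle and blood. In this list 1 of 6 tested genes was lower and 5 did not pass. PPO2, a prophenoloxidase of crystal cells, fell and averaged 0.975 ± 0.196 TPM in pupae at 3 g and 2.35 ± 0.565 TPM in control pupae (SD, n = 4 each, log2 change -0.94, adjusted p = 0.0461, limma). With any one of the 8 libraries left out PPO2 no longer passed, with adjusted p from 0.0685 to 0.142, within 0.0273 to 0.228 over all its alternatives. The main cuticle laccase, laccase2, and MCO3 are given after their values were seen. The laccase2 gene read 114, 134, 85.6 and 104 TPM in replicates 1 to 4 at 3 g and 164, 158, 158 and 181 TPM in control replicates 1 to 4, groups that did not overlap (log2 change -0.61, adjusted p = 0.0649, limma, and 0.0475 without 3 g replicate 2, within 0.00606 to 0.202 over its alternatives). MCO3 stood at 13.9, 14.5, 0.65 and 12.2 TPM in replicates 1 to 4 at 3 g and 0.57, 0.54, 0.82 and 56.2 TPM in control replicates 1 to 4 (adjusted p = 0.728), with its low pool at 3 g and its high control the same as those of e.

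The lists closest to the synthesis steps held no gene past the threshold. Of 5 genes of the tetrahydrobiopterin cofactor and of the control of tyrosine hydroxylase, the smallest adjusted p values (limma) were those of Catsup, a negative regulator of the hydroxylase, with 0.0909, and Dhpr, which regenerates the cofactor, with 0.239. Catsup was at 89.9 ± 11.1 TPM at 3 g and 64.3 ± 5.32 TPM in controls, and Dhpr at 52.1 ± 2.07 TPM at 3 g and 64.0 ± 6.67 TPM in controls (SD, n = 4 each). Henna (Hn), the phenylalanine hydroxylase that makes tyrosine, was at 73.6 ± 10.8 TPM at 3 g and 65.4 ± 11.1 TPM in controls. Among decarboxylases related to Ddc only Tdc1, a tyrosine decarboxylase, reached the minimum for testing, at 3.32 ± 1.32 TPM at 3 g and 2.50 ± 0.628 TPM in controls.

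In the list of β-alanine supply and transport 4 of 5 genes were tested and none passed. CRMP, which acts in the breakdown of pyrimidines that also yields β-alanine, was at 81.0 ± 18.7 TPM at 3 g and 101 ± 15.4 TPM in controls, and the carcinine transporter gene CG9317 at 1.34 ± 0.116 TPM at 3 g and 2.07 ± 0.189 TPM in controls (SD, n = 4 each). Of 6 N-acetyltransferases related to Dat, 2 were tested, AANATL2 (8.56 ± 2.03 TPM at 3 g, 11.3 ± 2.80 TPM in controls) and CG13759 (2.58 ± 1.05 TPM at 3 g, 3.85 ± 1.49 TPM in controls). In every library Dat stood above the highest level of both. In the melanin branch none of 3 genes passed. The gene y (yellow), needed for black pigment, read 1.58, 1.55, 2.47 and 119 TPM in replicates 1 to 4 at 3 g and 46.6, 53.5, 181 and 71.5 TPM in control replicates 1 to 4, so that 3 pools at 3 g lay below every control (log2 change -3.61, adjusted p = 0.201, limma, and 0.00254 without 3 g replicate 4, within 0.00254 to 0.561 over its alternatives). The dopachrome conversion gene yellow-f2 was at 1.60 ± 0.840 TPM at 3 g and 1.21 ± 0.131 TPM in controls.

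**Figure D5:**
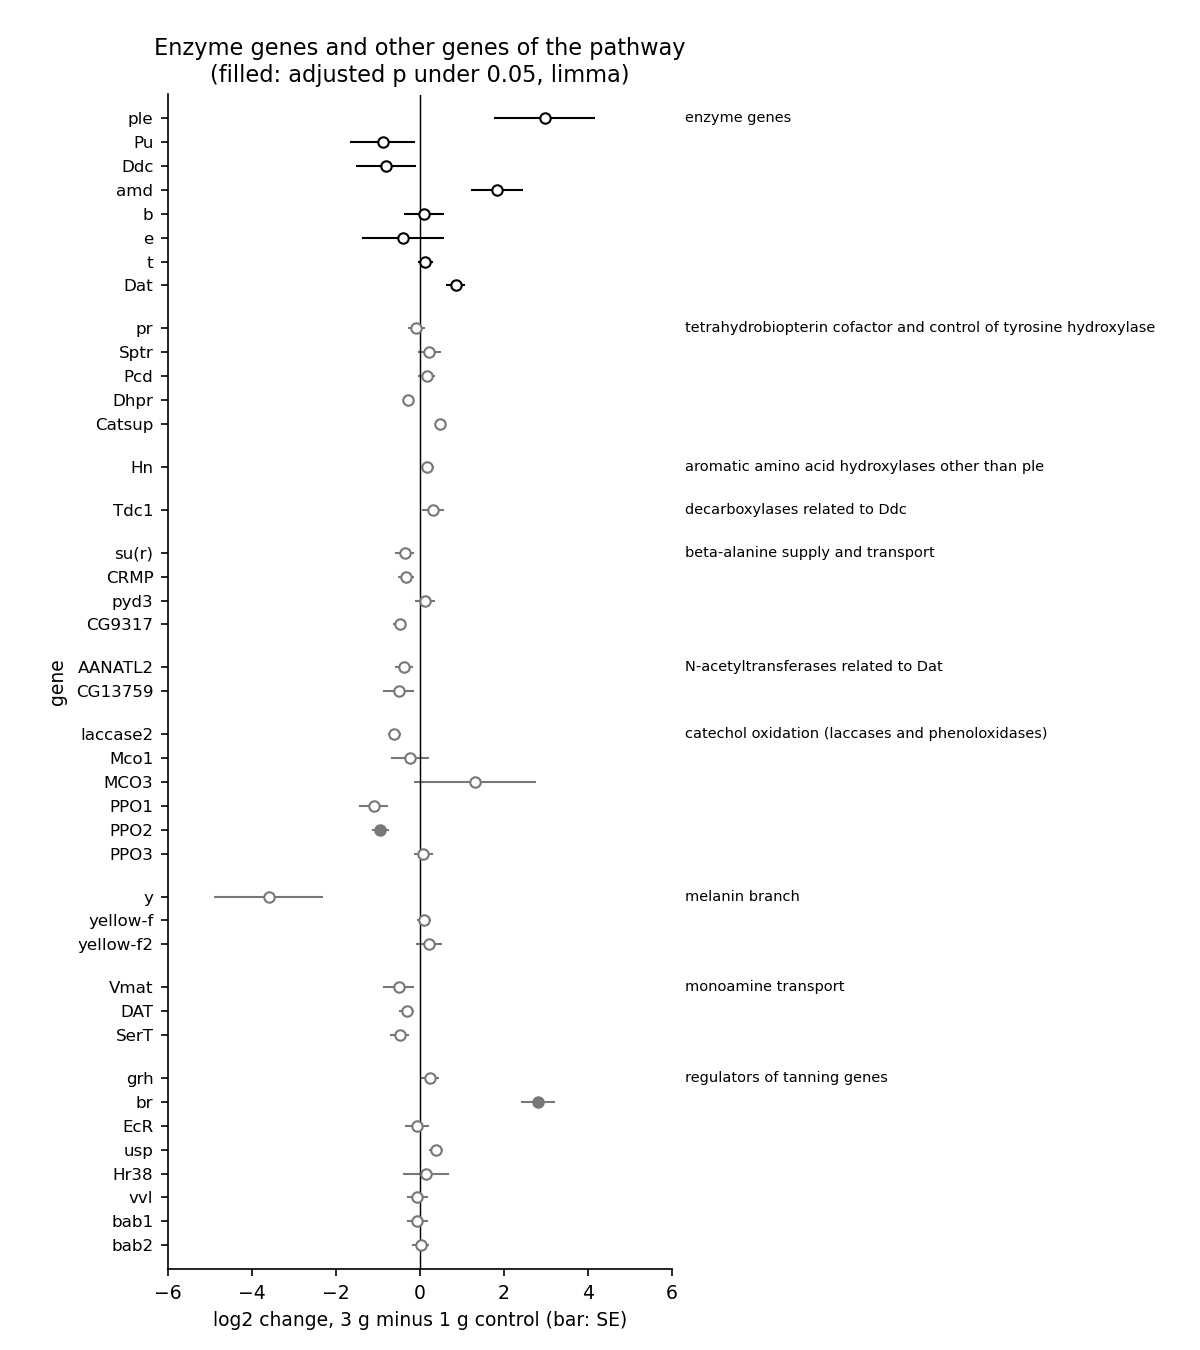
Log2 change, 3 g minus 1 g control, with its SE, for the 8 enzyme genes (black) and the 33 other tested genes of the pathway (grey), filled where the adjusted p was under 0.05 (limma). Only br and PPO2 are filled, and the enzyme genes spread from -0.89 (Pu) to 2.97 (ple).

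Neurons also use the first enzymes of this pathway. None of 3 monoamine transporters passed, with the dopamine transporter DAT at 2.21 ± 0.412 TPM at 3 g and 2.86 ± 0.335 TPM in controls and the serotonin transporter SerT at 1.18 ± 0.342 TPM at 3 g and 1.85 ± 0.424 TPM in controls (SD, n = 4 each). Of 10 neuronal markers 3 were lower and 0 higher, beside 2.06% lower and 2.23% higher among all genes tested (limma). Their summed level was 191 to 273 TPM at 3 g and 303 to 373 TPM in controls, highest in control replicate 4. Of 7 glial markers none passed, with sums of 301 to 410 TPM at 3 g and 343 to 469 TPM in controls, again highest in control replicate 4. Not every marker followed its sum, since elav (17.4 TPM) was lowest of all pools in control replicate 4 and nrv3 (153.9 TPM) highest.

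Lists of markers of other tissues differed in how far they moved with the groups. All marker lists were chosen with earlier results of these data known, so their counts are descriptive. Of all genes tested, 2.23% were higher and 2.06% lower (limma). Of 8 photoreceptor markers 2 were lower and 0 higher, with sums of 41.9 to 55.5 TPM at 3 g and 96.3 to 371 TPM in controls, where control replicate 4 held the highest sum and the others at most 130.1 TPM. Of 10 muscle markers 9 were lower, with sums of 1263 to 2052 TPM at 3 g and 3904 to 14617 TPM in controls, the highest again in control replicate 4. All 10 tested genes of the Eig71E group were higher. They belong to the salivary gland of the prepupa and were listed as markers of developmental timing. Their sums were 13308 to 32230 TPM at 3 g and 86.0 to 454 TPM in controls, the highest in 3 g replicate 4 and the lowest in control replicate 4. Among the 5 markers of epidermis and chitin none passed. Their sums were 1133 to 2937 TPM at 3 g, highest in replicate 2, and 661 to 1128 TPM in controls, lowest in replicate 4. Most of that difference lay in serp (mean 608 TPM at 3 g, 242 in controls) and verm (1111 and 540 TPM). The means of kkv (105.5 and 97.9 TPM), knk (52.2 and 45.0) and rtv (44.4 and 45.5) were close in both groups. Of 7 hemocyte and crystal cell markers 1, PPO2, was lower, with sums of 50.2 to 63.8 TPM at 3 g and 58.0 to 69.7 TPM in controls. No marker in these lists was at 0 in every library. The part of these tissues, or of developmental age, in the values of the enzyme genes was not tested.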

How the data were processed

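RNA-seq libraries of 4 pools of pupae per group were analysed. The deposited table holds 1 whole number per gene and library, entered as a score and taken to be TPM multiplied by 100, since each library sums to 1000000 after division by 100. The submitters' processing notes list Bowtie2 2.1.0, eXpress 1.5.1, Trimmomatic 0.30, DESeq and CASAVA without their roles. No source used here gives the build, annotation or strand setting; no positions are printed. Depth is unknown, and no counting interval is given.

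For genes averaging 1 TPM or more, log2(TPM + 0.5) was fitted in R 4.3.3 by limma 3.58.1 (trend, no covariate), and adjusted by Benjamini-Hochberg over all 12044 genes at 0.05. The fit was tested on simulated data. Ratios were tested by exact permutation of pools (70 splits). A search for motifs in promoters was not run. Members and lists were chosen with earlier results of these data known. From each list the text names the genes past the threshold, or else up to 2 with the smallest adjusted p. For members with an SD of at least 0.5 it names the 3 nearest genes. Alternatives covered pseudocount, filter, scaling, trend, robust fit, weights, replicate block and left-out libraries. Table names were matched to RefSeq symbols (Release 6 plus ISO1 MT), and overlaps come from the Ensembl annotation.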

Additional observations from a re-analysis of the deposited data

Results flagged for a closer look

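Single pools far from the other 3 of their group were sought for the 8 enzyme genes and the 4 ratios in both groups, 24 sets of 4 pools in all, by Dixon's gap test at its 95% critical value, which chance passes in about 1 in 20 sets. The value was passed 3 times, each time by control replicate 4. Ddc stood at 85.9 TPM and Pu at 218.7 TPM in that pool, and the log2 ratio of amd to Ddc was -4.72. The ratio contains Ddc, so that it is not a separate observation. In the same pool the summed markers of muscle, photoreceptors, neurons and glia were also at their highest. Single markers did not all follow their sum. The neuronal marker nrv3 (153.9 TPM) was at its highest there, but elav (17.4 TPM) and the photoreceptor marker norpA (11.3 TPM) were at their lowest of all pools. The part of these tissues in the values of Ddc and Pu was not tested.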

How the results depend on the processing

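No enzyme gene passed under any of the 19 alternative limma settings (0 higher and 0 lower in each). The changes of ple, amd, Dat, t and Pu kept their sign throughout, with 2.10 to 3.86 for ple, 1.13 to 2.28 for amd, 0.47 to 0.98 for Dat, 0.04 to 0.25 for t and -1.31 to -0.01 for Pu. That of Ddc turned to 0.13 with sample weights, whose estimate did not reach its convergence tolerance, and to 0.072 without 3 g replicate 2 and control replicate 4 together. That of e turned to 0.48 and 0.15 without 3 g replicate 3 or control replicate 4, within -0.92 to 0.48 over single libraries left out, and that of b ranged from -0.16 to 0.48. The difference in the ratio of e to t ranged from -1.17 to 0.36 over single libraries left out, and no ratio passed under any setting. Pathway genes lower numbered 0 to 1 over single libraries left out, and the 1 was not PPO2. It was laccase2 without 3 g replicate 2 and y without 3 g replicate 4. With sample weights 2 were lower, laccase2 and y. The count was 0 with quantile normalization, median-of-ratios rescaling, a filter at 5 TPM, a robust fit, the replicate block or both libraries left out. PPO2 lay below the filter at 5 TPM and was not tested there. Pathway genes higher numbered 0 with the replicate block. All genes past the threshold numbered 162 to 479 over single libraries left out (lowest without control replicate 2), 228 with both left out, 1193 with sample weights and 147 with the replicate block. The causes were not tested. Same-numbered libraries deviated from their group means with correlations of -0.38, -0.52, 0.06 and 0.08, and 0 of 8 libraries correlated best with its own number, so the numbers were not taken to pair the pools. Depth cannot be read from TPM, and 4 pools a group limit what differences can be called.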
